A study of Homo sapiens with 5 samples.

Results

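Methyl groups on lysine 36 of histone H3 (H3K36) are placed by a small set of writer enzymes and removed by a small set of erasers, and 10 genes for such enzymes were followed here through a knockdown of one of them, NSD2. The 10 were found by gene symbol among the 26364 genes listed. They are the writers WHSC1 (an older symbol of NSD2), WHSC1L1 (an older symbol of NSD3), NSD1, SETD2 and ASH1L, and the erasers KDM2A, KDM2B, KDM4A, KDM4B and KDM4C. The question was whether the mRNA of any other writer or eraser changed when NSD2 was depleted, as a compensating response would.

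The cells were IMR-90, a line of normal human lung fibroblasts with a limited lifespan, in DMEM/F12 medium with serum. They were transfected with siRNA and collected 24 hr later for sequencing of poly(A) RNA. The control group (Ctr-KD, 2 libraries) received a control siRNA against luciferase, a gene human cells lack. The knockdown group (NSD2-KD, 3 libraries) received a different siRNA against NSD2 in each library (NSD2-1, NSD2-2 and NSD2-3), so the effect of one siRNA and the variation of one culture cannot be told apart. The files give mRNA only, so neither NSD2 protein nor the H3K36 mark itself was measured in these libraries, and in RNA of whole cultures a lower value for fewer expressing cells and one for less RNA per cell cannot be told apart.

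NSD1, NSD2 and NSD3 form the NSD family, which makes mono- and dimethylated H3K36 across gene bodies and the stretches between genes. ASH1L makes dimethylated H3K36 at active developmental genes. SETD2 travels with elongating RNA polymerase II and is the main enzyme for trimethylated H3K36 in mammalian cells. KDM2A and KDM2B remove the lower methyl states and bind unmethylated CpG islands through a CXXC zinc finger. KDM4A, KDM4B and KDM4C remove higher methyl states from both lysine 9 and lysine 36 of H3.

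The NSD enzymes resemble each other most in the catalytic SET domain, which is where the longest exact match between the coding sequences of NSD2 and NSD1 lies. Of the 4077 overlapping 19-base words in the longest GENCODE coding sequence of NSD2 (4095 bases), a length near that of a siRNA guide, 1 also occurred in the longest coding sequence of NSD1. None occurred in that of NSD3, SETD2 or ASH1L, where the longest shared stretches were 17, 16 and 12 bases. Untranslated regions were not compared, and the positions at which the 3 siRNAs pair were not located here. The study lists all 3 as directed at the coding region, and none of the sequences it lists for them is the word shared with NSD1. The shared word, the longest exact match between these coding sequences of NSD2 and NSD1, is shown in capitals with 15 bases on either side. Similarity without an exact match was not searched for. The 2 stretches, on GRCh37, lie in exon 19 of 22 of the NSD2 transcript (chr4:1976630-1976678, plus strand) and exon 20 of 23 of the NSD1 transcript (chr5:176710828-176710876, plus strand), and 40 of their 49 bases are the same.
NSD2: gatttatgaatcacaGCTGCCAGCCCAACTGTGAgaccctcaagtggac
NSD1: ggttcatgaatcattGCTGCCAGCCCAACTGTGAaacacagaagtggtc

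Depth was low and even, at 2473691 to 2845063 reads on genes per library, so that 3 reads corresponded to 2.76 to 3.28 normalized counts, the reads divided by the size factor of the library. The 2 Ctr-KD libraries were closer to each other than any other pair, with a chi-square of 1.05 for each degree of freedom where counting noise alone gives about 1 and the other pairs gave 3.87 to 5.29. The SD of the Ctr-KD group therefore holds little beyond counting noise, and how far separate control cultures would differ cannot be read from it. The SEs and p-values below rest in part on this spread. Fibroblast markers were high in every library (9 genes summing to 202230 to 228130 normalized counts), the lung mesenchyme factor TBX5 was read in all of them and TBX4 in none, epithelial and endothelial lists summed to no more than 2.18 and 5.52, and of the immune markers PTPRC was at 0 while CD68, which fibroblasts also express, stood at 60.5 to 103. All 5 proliferation markers on a short list (MKI67, TOP2A, CCNB1, PCNA and MCM2) were lower in every NSD2-KD library than in either control library, as were 13.9% of all tested genes. Their summed level was 2184 and 2287 normalized counts in Ctr-KD against 1274, 748 and 838 in NSD2-KD, and the part of this shift in the values below was not tested.

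WHSC1 fell to about one part in 5 of its control level, and it was the only one of the 10 enzymes whose mRNA passed the test. This gene (chr4:1873120-1983934, plus strand) was read at 463 and 443 normalized counts in the Ctr-KD libraries and at 90.2, 81.9 and 87.9 in the NSD2-KD libraries. The groups lay far apart, with 453 ± 13.8 (SD, n = 2) in Ctr-KD and 86.7 ± 4.26 (SD, n = 3) in NSD2-KD. The difference was -2.37 on the log2 scale (SE 0.12, 95% interval -2.66 to -2.09, adjusted p = 0.000464), a ratio of 0.193 with a 95% interval of 0.158 to 0.235. These values come from limma on log2 of the normalized count plus 1, with p-values adjusted over the 11313 genes that had a mean of at least 10. The call needed both controls. Without Ctr-KD replicate 1 the difference was -2.34 (adjusted p = 0.0926 in limma), and without Ctr-KD replicate 2 it was -2.41 (adjusted p = 0.0787 in limma).

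The 3 siRNAs left nearly the same amount of WHSC1 mRNA. In reads, the gene had 486 and 431 in Ctr-KD and 98, 75 and 90 in NSD2-KD. Set against both controls, 19.9% remained with NSD2-1 (95% Clopper-Pearson interval 16.0 to 24.5%), 18.1% with NSD2-2 (14.1 to 22.9%) and 19.4% with NSD2-3 (15.4 to 24.1%). These intervals cover counting error only, and they overlap throughout. The spread among the 3 knockdown libraries (coefficient of variation 4.91%) was smaller than the 10.7% that counting error alone gives at that depth, so no difference in strength between the siRNAs was detectable at this depth.

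**Figure D1:**
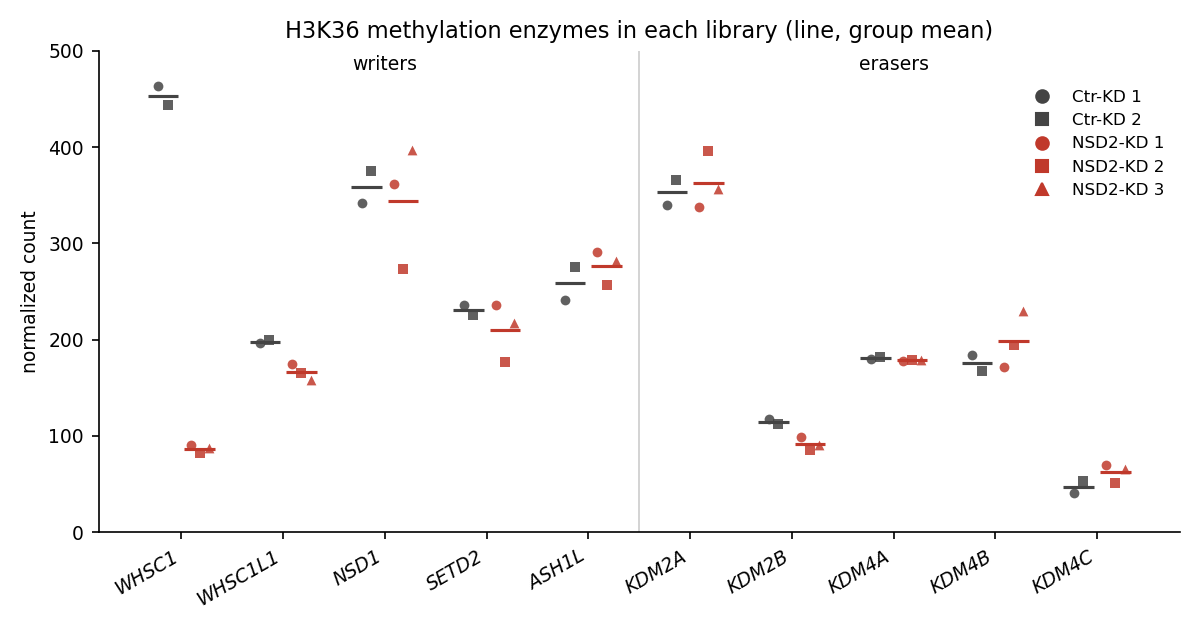
Normalized counts of the 10 H3K36 enzymes in each of the 2 Ctr-KD (grey) and 3 NSD2-KD (red) libraries, with a line at each group's mean and marker shape for the replicate number. WHSC1 drops from 443 or more to 90.2 or less, while the points of the other genes overlap or lie close together.

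Neither of the other NSD family genes was called higher or lower. WHSC1L1, which encodes NSD3 (chr8:38127222-38239790, minus strand), stood at 196 and 200 normalized counts in Ctr-KD and at 175, 165 and 158 in NSD2-KD. All 3 knockdown libraries lay below both controls, by a margin that did not pass the test (log2 difference -0.25, SE 0.12, adjusted p = 0.591 in limma). Its interval of -0.53 to 0.025 on the log2 scale reaches from a ratio of 0.691 to one of 1.02. By siRNA, 88.4% (74.0 to 105%), 83.4% (68.7 to 101%) and 79.9% (66.2 to 96.2%) of the control level was read.

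NSD1 (chr5:176558831-176727214, plus strand), the largest of the family, was read at 342 and 376 normalized counts in Ctr-KD and at 362, 273 and 397 in NSD2-KD. The groups overlapped, with the lowest and the highest value of all 5 libraries both in the knockdown group. The means were 359 ± 23.7 (SD, n = 2) and 344 ± 64.0 (SD, n = 3), and the log2 difference was -0.08 (SE 0.16, interval -0.45 to 0.30, adjusted p = 0.923 in limma). The low value was the NSD2-2 library, in which 76.3% of the control level was read (interval 65.8 to 88.2%), against 101% with NSD2-1 (89.1 to 114%) and 111% with NSD2-3 (98.0 to 125%). The coefficient of variation among the knockdown libraries was 18.6%, where counting error gives 5.35%. Without NSD2-KD replicate 2 the sign of the difference turned, to 0.08.

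Added together, the 3 NSD genes, the targeted WHSC1 among them, were lower in every knockdown library than in either control. Their summed level was 1001 and 1019 normalized counts in Ctr-KD and 627, 520 and 643 in NSD2-KD, or 59.1% of the control mean. WHSC1L1 and NSD1 alone summed to 557 ± 26.1 (SD, n = 2) in Ctr-KD and 510 ± 63.0 (SD, n = 3) in NSD2-KD, 91.6% of the control mean. Without WHSC1 the groups overlapped, at 538 and 575 in Ctr-KD and 536, 438 and 555 in NSD2-KD. These are descriptions with no test of their own. Per kilobase of merged exons, WHSC1 made up 44.3% and 41.8% of the family's level in the controls and 13.6%, 14.7% and 13.1% in the knockdown libraries. With the longest transcript as the length, those shares were 54.9% and 52.2% against 19.3%, 20.9% and 18.5%.

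SETD2, the main trimethylating writer (chr3:47057918-47205603, minus strand), had 236 and 225 normalized counts in Ctr-KD and 236, 177 and 218 in NSD2-KD. Here, too, the NSD2-2 library was the low one, at 76.6% of the control level (interval 63.7 to 91.8%), while NSD2-1 was at 102% (87.2 to 119%). The group difference was -0.14 on the log2 scale (SE 0.15, interval -0.48 to 0.19, adjusted p = 0.826 in limma), and it ran from -0.23 without NSD2-KD replicate 1 to -0.03 without NSD2-KD replicate 2. ASH1L (chr1:155305059-155532953, minus strand) had 241 and 276 normalized counts in Ctr-KD and 291, 257 and 282 in NSD2-KD. The values interleaved, with a log2 difference of 0.10 (SE 0.12, interval -0.18 to 0.38, adjusted p = 0.858 in limma), and from 0.0022 without Ctr-KD replicate 1 to 0.20 without Ctr-KD replicate 2. The 4 writers other than WHSC1 summed to 1046 ± 42.8 (SD, n = 2) normalized counts in Ctr-KD and 997 ± 108 (SD, n = 3) in NSD2-KD, which is 95.3% of the control mean.

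Among the erasers, none passed the test in either direction in limma, and none did at an unadjusted p below 0.05. KDM2A (chr11:66886734-67025553, plus strand) had 340 and 366 normalized counts in Ctr-KD and 338, 395 and 356 in NSD2-KD. Its groups overlapped at a log2 difference of 0.04 (SE 0.11, interval -0.23 to 0.30, adjusted p = 0.948 in limma), and the sign turned without Ctr-KD replicate 1 (-0.015) and without NSD2-KD replicate 2 (-0.025). Its paralog KDM2B (chr12:121866899-122018928, minus strand) had 117 and 112 normalized counts in Ctr-KD and 98.5, 85.2 and 90.8 in NSD2-KD. All 3 knockdown libraries lay below both controls, at a log2 difference of -0.32 that did not pass the test (SE 0.15, interval -0.66 to 0.012, unadjusted p = 0.0568, adjusted p = 0.560, limma). KDM2B also works outside H3K36 demethylation, as the CpG-island-binding subunit of a variant Polycomb complex.

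KDM4A (chr1:44115820-44171189, plus strand) was the steadiest of the 10, with 180 and 182 normalized counts in Ctr-KD and 178, 179 and 179 in NSD2-KD. The groups were separate by rank, but their means of 181 ± 1.44 (SD, n = 2) and 178 ± 0.790 (SD, n = 3) differed by far less than counting error. The coefficient of variation among the knockdown libraries was 0.443%, where counting error gives 7.45%. The log2 difference was -0.02 (SE 0.12, interval -0.29 to 0.25, adjusted p = 0.973 in limma). In the GENCODE annotation, 40.2% of its merged exons coincide with those of another gene model on the same strand, ENSG00000284989. Whether the annotation used for counting held that model is not known. If it did, reads there could have been assigned to either gene or to neither.

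KDM4B (chr19:4969124-5153609, plus strand) had 184 and 168 normalized counts in Ctr-KD and 171, 194 and 229 in NSD2-KD, with the highest value in the NSD2-3 library. That library stood at 130% of the control level (interval 110 to 154%), NSD2-1 at 97.2% (81.0 to 116%) and NSD2-2 at 110% (91.7 to 133%), and the group difference was 0.16 on the log2 scale (SE 0.15, interval -0.19 to 0.51, adjusted p = 0.803 in limma), between 0.05 without NSD2-KD replicate 3 and 0.26 without NSD2-KD replicate 1. KDM4C (chr9:6720863-7175648, plus strand) had the highest ratio of the 10, on the fewest reads. It was read at 41.0 and 53.5 normalized counts in Ctr-KD and at 69.9, 51.3 and 65.4 in NSD2-KD, so the NSD2-2 library fell between the controls. With intervals for counting error only, KDM4C stood at 149% of the control level with NSD2-1 (109 to 203%) and 139% with NSD2-3 (100.3 to 192%). With NSD2-2 it stood at 109% (75.3 to 157%). Its log2 difference of 0.39 (SE 0.21, interval -0.10 to 0.88, unadjusted p = 0.106, adjusted p = 0.641, limma) corresponds to a ratio of 1.31 with an interval of 0.931 to 1.85. With 1 library left out the difference ran from 0.20 (without Ctr-KD replicate 1) to 0.58 (without Ctr-KD replicate 2). The gene had 43 to 76 reads a library, and a rise of this size was not told apart from the spread between libraries. The 5 erasers together summed to 872 ± 13.8 (SD, n = 2) normalized counts in Ctr-KD and 894 ± 34.4 (SD, n = 3) in NSD2-KD.

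**Figure D2:**
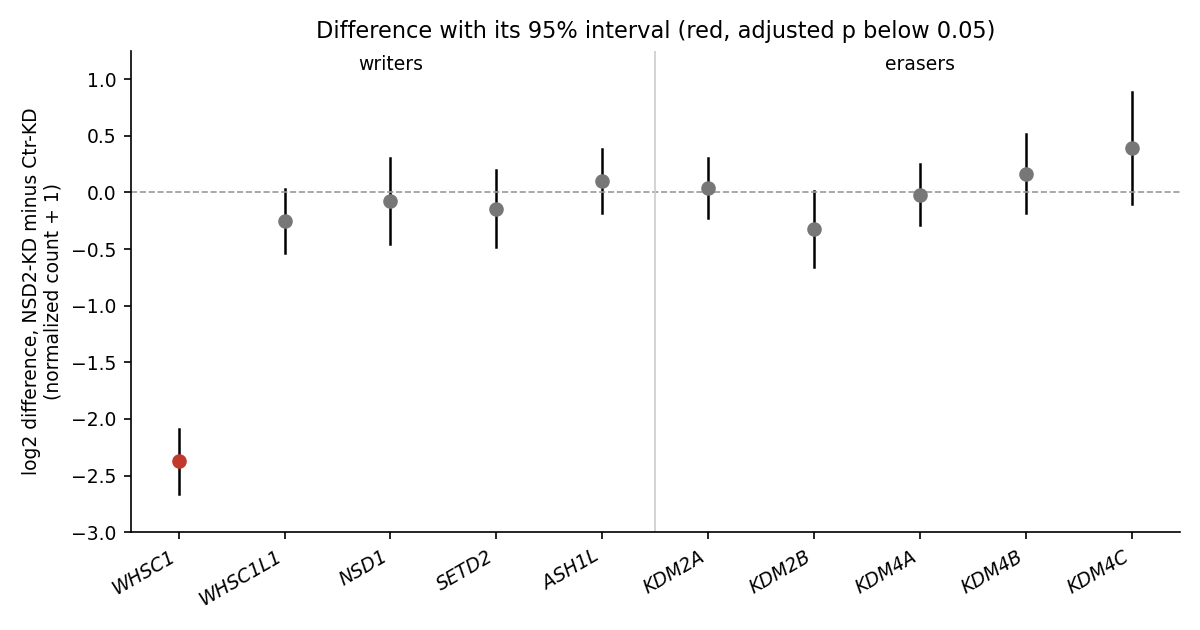
Log2 difference of normalized count plus 1, NSD2-KD minus Ctr-KD, for the 10 H3K36 enzymes, with 95% intervals from limma as bars and red for an adjusted p below the threshold of 0.05. WHSC1 lies at -2.37, and the intervals of the other 9 genes all include 0.

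Counted over the 10 enzymes, 1 was lower at an adjusted p below 0.05 (WHSC1, the targeted gene), where 0.0530% of all tested genes were. Higher at that threshold were 0 of 10, against 0.0354% of all tested genes in limma. At an unadjusted p below 0.05, 1 of 10 was lower (4.99% of all tested genes) and 0 of 10 higher (4.19%). Those counts moved with single libraries: without NSD2-KD replicate 1 KDM2B was also lower (-0.38, unadjusted p = 0.0430, adjusted p = 0.421, limma), and without NSD2-KD replicate 2 KDM4C was higher (0.52, unadjusted p = 0.0384, adjusted p = 0.452, limma). In 4 of 10 all NSD2-KD libraries lay below both controls (WHSC1, WHSC1L1, KDM2B and KDM4A; 13.9% of all tested genes), and in 0 of 10 all lay above (13.8%). Leaving out WHSC1, the 9 remaining enzymes had a median log2 difference of -0.02 and a range of -0.32 to 0.39, beside a median of -0.0089 over all tested genes, and their smallest adjusted p was 0.560. Their smallest adjusted p over 16 alternative analyses was 0.421. For these 9 enzymes the upper ends of the limma intervals ran from a ratio of 1.01 for KDM2B to 1.85 for KDM4C. Each interval was computed for its gene alone, without adjustment over the 9. Like the p-values, the intervals rest in part on the spread of the controls, which holds little beyond counting noise. A larger rise than these upper ends is therefore not excluded.

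Levels of different genes were compared only per kilobase. In Ctr-KD, with merged exons as the length, KDM4A (34.9 ± 0.279 normalized counts per kilobase) and KDM2A (34.0 ± 1.78) were highest and close together (SD, n = 2 throughout). These SDs hold little beyond counting noise, so whether neighbouring genes differ in level cannot be judged from them. WHSC1 followed at 22.3 ± 0.680, above ASH1L (18.7 ± 1.78), NSD1 (16.5 ± 1.09) and SETD2 (16.1 ± 0.541). The order among ASH1L, NSD1 and SETD2 was not tested. Below them came WHSC1L1 at 13.0 ± 0.155 and KDM4B at 11.9 ± 0.777, then KDM2B at 8.41 ± 0.261 and KDM4C at 4.58 ± 0.858. By this measure WHSC1 was the highest of the 5 writers in control cells. The count is for the whole gene, and the study reports a short NSD2 isoform without the SET domain, so the share of reads from transcripts that encode a writer is not known. In NSD2-KD it was the lowest of the 10 enzymes, at 4.26 ± 0.209 (SD, n = 3), below KDM4C at 6.03 ± 0.939.

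The order among the controls depended on the length used, since which transcripts the cells made was not known. The lengths are from GENCODE, while the annotation used for counting is not given, so a length can hold bases that were not counted. With the longest annotated transcript, 5 of 10 genes kept their rank: WHSC1 became the highest at 52.9 ± 1.62 normalized counts per kilobase, followed by KDM2A at 47.8, KDM4A at 40.4 and KDM4B at 30.8. WHSC1 was the highest writer in Ctr-KD and the lowest of the 10 in NSD2-KD with either length.

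**Figure D3:**
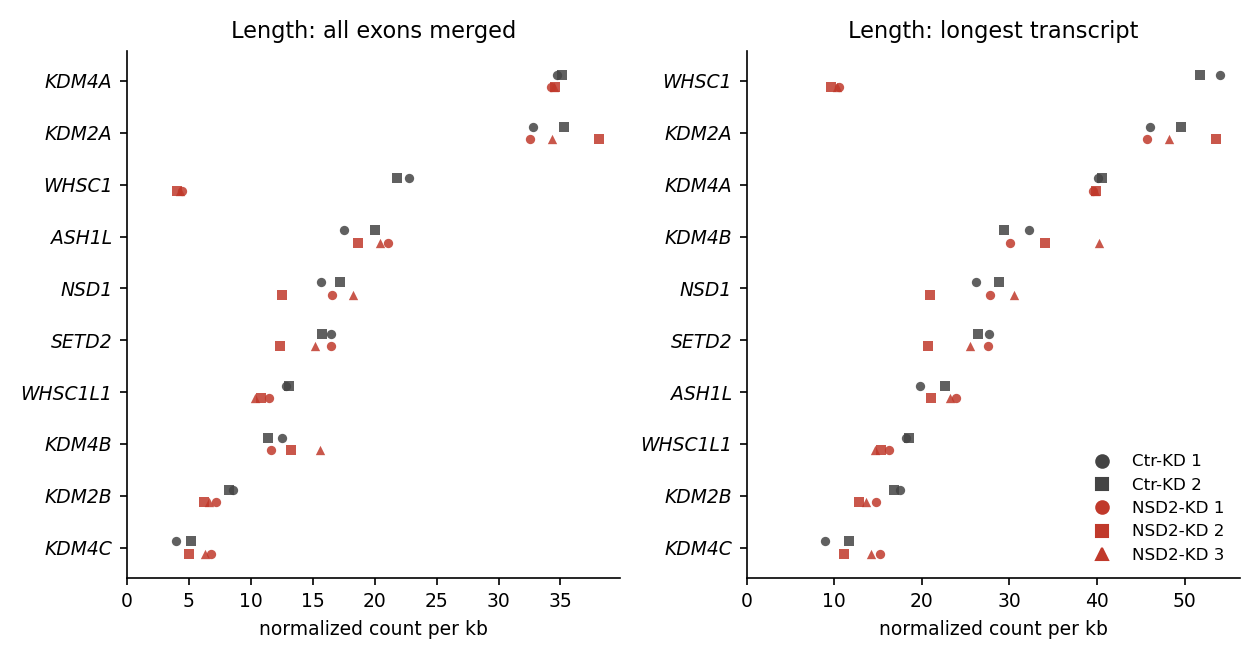
Normalized counts per kilobase of the 10 enzymes in each library, Ctr-KD in grey and NSD2-KD in red, with merged exons (left) or the longest transcript (right) as the length, ordered by the Ctr-KD mean. WHSC1 moves from 22.3 to 4.26 on the left and from 52.9 to 10.1 on the right, below the means of all other genes.

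Less studied enzymes of the same mark, with the KDM4 relatives KDM4D and KDM4E, were read from a separate list of 8. Of these, 5 could be tested, and 0 were lower and 0 higher at either an adjusted or an unadjusted p below 0.05 in limma. SETD3, now known mainly as the actin histidine methyltransferase, had 131 and 132 normalized counts in Ctr-KD and 71.8, 114 and 110 in NSD2-KD. Its log2 difference of -0.44 (SE 0.21, adjusted p = 0.592) had its lowest value in the NSD2-1 library. SMYD2, a methyltransferase with many non-histone substrates, was at -0.39 (SE 0.20, adjusted p = 0.616), and these were the 2 of 5 genes with all knockdown libraries below both controls (13.9% of all tested genes). Leaving out 1 library moved SETD3 between -0.56 (without NSD2-KD replicate 2) and -0.23 (without NSD2-KD replicate 1), and SMYD2 between -0.59 (without Ctr-KD replicate 1) and -0.19 (without Ctr-KD replicate 2). The oxygenase genes C14orf169 (now RIOX1) and KDM8 were at 0.11 (adjusted p = 0.925) and 0.18 (adjusted p = 0.920). PRDM9, a meiotic writer, and KDM4E had no reads in any library, which allows up to 2.76 to 3.28 normalized counts. KDM4D reached 2.18 at most.

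Readers carry domains that dock on methylated H3K36, and of 17 listed 16 could be tested. None passed the adjusted threshold in limma, 4 of 16 were lower at an unadjusted p below 0.05 (MSH6, MTF2, PHF19 and PSIP1; 4.99% of all tested genes) and 0 were higher (4.19%). In 5 of the 16 all NSD2-KD libraries lay below both controls, those 4 and PWWP2A (13.9% of all tested genes). MSH6, a mismatch repair subunit whose PWWP domain binds trimethylated H3K36, had 165 and 159 normalized counts in Ctr-KD and 100, 78.6 and 90.8 in NSD2-KD. The groups were well apart, at a log2 difference of -0.85 (SE 0.15, interval -1.21 to -0.49, adjusted p = 0.164 in limma). DESeq2 on the recovered reads called it, at an adjusted p of 0.0485, where its 16 alternatives ranged from 0.0485 to 1.00. Part of its annotated exons (22.7%) is shared with FBXO11 on the opposite strand, and MSH6 is also one of the genes that cycling cells express more, and the part of the lower proliferation markers in its value was not tested.

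The Polycomb-associated readers MTF2 and PHF19 were at -0.65 (SE 0.21, adjusted p = 0.385) and -0.54 (SE 0.20, adjusted p = 0.448), and PSIP1, the chromatin tether known as LEDGF, was at -0.36 (SE 0.13, adjusted p = 0.456), all in limma. At the other end, GLYR1 and PWWP2B, both with PWWP domains, were at 0.07 and 0.20. DNMT3A and DNMT3B, the DNA methyltransferases that read di- and trimethylated H3K36, were at 0.03 and -0.22 with intervals of -0.40 to 0.46 and -0.90 to 0.46. The median over the 16 was -0.07, and 12 of them had a difference below 0 (5822 of the 11313 tested genes did).

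The genes that tie SETD2 to transcription gave no call. Of 8 partners, among them POLR2A, the largest subunit of RNA polymerase II, 0 were lower and 0 higher at either threshold in limma. PAF1, a subunit of the elongation complex of that name, was the lowest at -0.20 (SE 0.14, adjusted p = 0.726) and the only one of the 8 with all knockdown libraries below both controls, which is near the 13.9% of all tested genes. IWS1, which bridges SETD2 and SUPT6H on the polymerase, was at -0.01, and CTR9 and CDC73, further subunits of the PAF1 complex, at 0.08 and 0.13. POLR2A itself was read at 872 and 959 normalized counts in Ctr-KD and at 963, 872 and 985 in NSD2-KD.

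**Figure D4:**
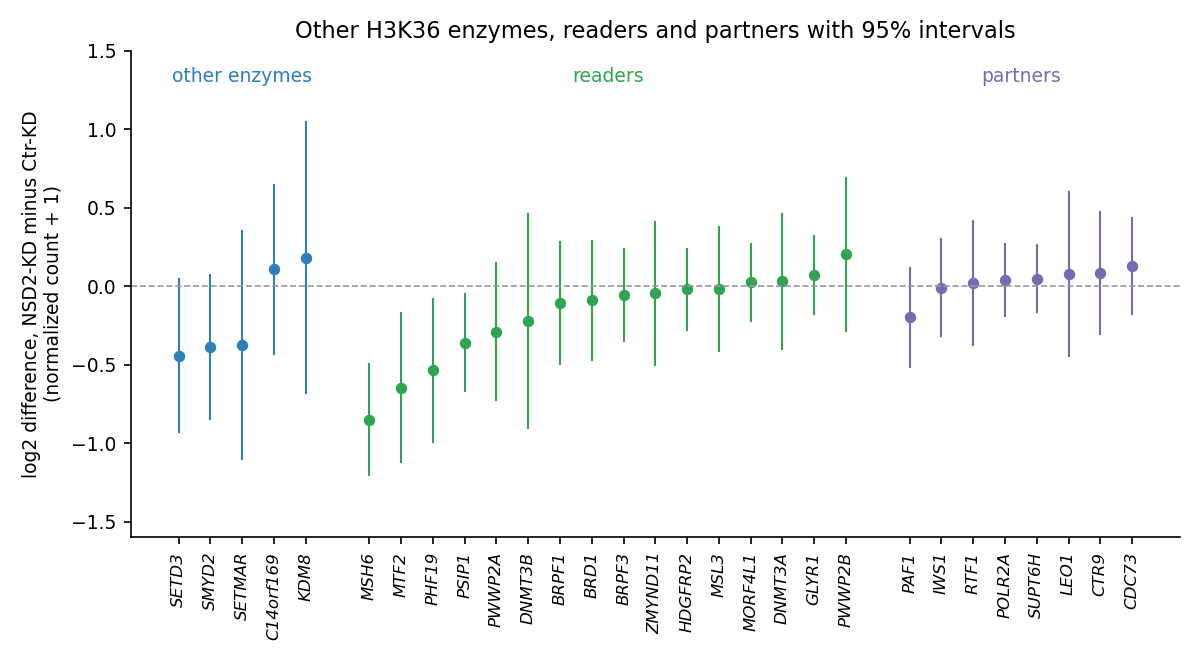
Log2 difference of normalized count plus 1, NSD2-KD minus Ctr-KD, with 95% intervals from limma, for the tested genes of 3 lists: other H3K36 enzymes (blue, 5 genes), readers (green, 16) and partners of SETD2 and the polymerase (purple, 8). MSH6 is the lowest at -0.85, and no gene of the 3 lists passed the adjusted threshold.

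The genes most like WHSC1 across the 5 libraries were sought among 11302 other tested genes by the root mean square distance between log2 values, each taken relative to the gene's Ctr-KD mean. The nearest were UHMK1, a kinase gene (0.514), and RRM2, the small subunit of ribonucleotide reductase (0.549), followed by FAM111B (0.610), the histone chaperone gene ASF1B (0.670) and AMMECR1 (0.671). RRM2 had 389 and 412 normalized counts in Ctr-KD and 122, 128 and 124 in NSD2-KD, as even across the siRNAs as WHSC1. The choice by distance favours such evenness. The ratios of the named genes ran from 0.222 (FAM111B) to 0.346 (AMMECR1), all above the 0.193 of WHSC1. UHMK1 had 597 and 591 in Ctr-KD and 179, 129 and 224 in NSD2-KD, more spread than WHSC1.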

How the data were processed

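The 2 Ctr-KD and 3 NSD2-KD libraries of IMR-90 cells were poly(A)-selected and sequenced as single reads. Per the labels and the study's methods, the authors trimmed the reads, aligned them to hg19 with HISAT2, kept unique alignments with SAMtools, counted with featureCounts and divided by DESeq2 size factors. The deposited values are this normalized signal per gene. The annotation and the strand setting are not given in the sources used here. The authors' own table of fold changes and p-values was not used.

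Dividing each value by that of 1 read gave whole reads for 100% of values (within 0.01 of a read), used for intervals, edgeR 4.0.16 and DESeq2 1.42.0. The main test was limma 3.58.1 with a trend on log2(normalized count + 1), for genes with a mean of at least 10, Benjamini-Hochberg adjusted over 11313 genes at 0.05; fold changes on this scale understate those of low genes. Coordinates, exon lengths and sequences are from GENCODE on GRCh37, the assembly of hg19. The labels number the NSD2-KD libraries by siRNA, so replicate numbers were not taken as pairs. Deviations of same-numbered libraries correlated at -0.015 and -0.027. These values cannot show whether samples were paired, since the control deviations are little beyond counting noise. No permutation of single genes is given, since with 2 and 3 libraries its smallest exact p is 0.1. The methods call the libraries biological replicates, but the 2 Ctr-KD libraries differ by little beyond counting noise. The 10 enzymes and the other lists, described above, were chosen with earlier results of these data known. From the 3 lists, the genes named by rule were those past the threshold and the 2 with the largest difference in each direction. Further members are given for their counts, and DNMT3A, DNMT3B and POLR2A were added outside this rule.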

Additional observations from a re-analysis of the deposited data

How the results depend on the processing

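WHSC1 had a log2 difference of -2.41 to -2.32 over all 16 alternatives (-2.41 to -2.33 with 1 replicate left out). It passed the threshold in all but 2 of them, without Ctr-KD replicate 1 (-2.34) and without Ctr-KD replicate 2 (-2.41), where the lone control is assumed to vary like the other libraries. The number of H3K36 enzymes called lower was then 0 rather than 1. No enzyme was called higher in any alternative. Over all tested genes, 6 were called lower and 4 higher in limma, against 1 and 0 without the trend, 11 lower with edgeR, 44 and 14 with DESeq2, 8 higher with quantile normalization, 11 lower at a threshold of 0.1, and 0 to 22 lower and 0 to 8 higher with 1 replicate left out. The cause of these shifts was not tested. With the replicate block 84 were lower and 18 higher, and WHSC1 was at -2.38. This fit leaves NSD2-KD replicate 3 without a partner, and the numbers of the NSD2-KD libraries are those of the siRNAs. Among the other lists DESeq2 called 1 gene lower, MSH6. With the longest transcript as the length, 5 of 10 enzymes kept their rank. Signs turned for NSD1 (-0.19 to 0.081 with 1 replicate left out, above 0 without NSD2-KD replicate 2), KDM2A (-0.025 to 0.091, below 0 without Ctr-KD replicate 1 or NSD2-KD replicate 2), C14orf169 (-0.025 with the replicate block, and -0.025 to 0.29 with 1 replicate left out), KDM8 (-0.0012 to 0.46), PWWP2B (-0.0090 to 0.41), IWS1 (-0.14 to 0.12) and CTR9 (-0.067 with the replicate block, and -0.067 to 0.20), none of which passed the threshold. The other 155 of 160 values for the enzymes kept their direction and side of the threshold. At this depth the genes with few reads, such as KDM4C, had the widest intervals.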
